A study of Homo sapiens with 12 samples.

Results

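The distal long arm of human chromosome 15 was examined as a stretch of neighbouring genes in NT2/D1 cells with and without a knockdown of ZRF1 (gene symbol DNAJC2). Its members were all genes of the array on chromosome 15 that start at or above 72.4 Mb (assembly GRCh38), without 2 genes with probes there that the rule left out. These were 214 of the 18646 genes measured. They were selected on measured values: the stretch was marked off because its mean ratios of knockdown over control stood above those of the rest of the chromosome. The members' ratios at either time are therefore given as a description and support nothing, and only the change between the times, which the selection did not use, was tested.

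NT2/D1 (NTERA2) is a human embryonal carcinoma line that begins to differentiate under retinoic acid. Knockdown cells carried the shZRF1 hairpin and control cells carried the shRandom hairpin. Both were either left untreated (0 h) or given 0.01 µM retinoic acid for 3 h. Each of 12 Agilent 2-colour arrays set knockdown RNA against control RNA of the same time, with 3 biological replicates per time and 2 arrays per replicate. A forward array held the knockdown RNA in Cy5, and a swapped array held it in Cy3. Because 1 knockdown line was set against 1 control line, the action of the hairpin and any other difference between the lines cannot be told apart. Treated and untreated RNA never shared an array, so the response to retinoic acid was not measured. The titles name the knockdown line in a single way, whereas the characteristics number it from 1 to 6, so it was treated as 1 line. Nothing in the labels gives the day of each replicate number, and p-values measure only the spread between these samples.

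As background, genes that lie side by side on a chromosome share a local surrounding but usually differ in function and control, and this arm holds a mixed set. CYP11A1 carries out the first step of steroid hormone synthesis, CHRNA3, CHRNA5 and CHRNB4 form a cluster of nicotinic acetylcholine receptor subunits, ALDH1A3 makes retinoic acid, and STRA6 is the receptor that takes up retinol. FURIN and PCSK6 are proteases that activate secreted precursors. ZRF1 is a J-domain chaperone of the ribosome that has also been described on chromatin.

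Promoter sequences show what the start sites at both ends of the range look like. Those of the highest members by mean ratio, CEMIP (chr15:80779120-80779419, plus strand) and CYP11A1 (chr15:74367597-74367896, minus strand), and of the first member inside the region, ARIH1 (chr15:72474080-72474379, plus strand), follow from RefSeq (GRCh38.p14). That of CHRNA3 (chr15:78620947-78621246, minus strand), which ran against its neighbours, was added after its values were seen. PSTPIP1, whose rank rests on 1 array, is left out. Each run covers 250 bases before to 50 after the start, 5′ to 3′ on the gene's strand, and capitals mark matches to 4 motifs on either strand. The first of these motifs was TATAAA, known as the TATA box of core promoters. The GC box GGGCGG is where factors of the Sp family can bind. The third, CCAAT, is bound by the trimeric factor NF-Y in many promoters. Nuclear receptors, among them those for retinoic acid, recognise copies of AGGTCA.
CEMIP: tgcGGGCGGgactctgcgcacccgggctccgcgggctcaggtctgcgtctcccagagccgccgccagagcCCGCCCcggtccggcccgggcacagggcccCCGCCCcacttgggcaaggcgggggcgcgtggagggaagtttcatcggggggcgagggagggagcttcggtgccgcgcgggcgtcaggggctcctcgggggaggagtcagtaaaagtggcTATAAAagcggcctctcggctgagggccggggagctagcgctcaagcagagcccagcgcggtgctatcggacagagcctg
CYP11A1: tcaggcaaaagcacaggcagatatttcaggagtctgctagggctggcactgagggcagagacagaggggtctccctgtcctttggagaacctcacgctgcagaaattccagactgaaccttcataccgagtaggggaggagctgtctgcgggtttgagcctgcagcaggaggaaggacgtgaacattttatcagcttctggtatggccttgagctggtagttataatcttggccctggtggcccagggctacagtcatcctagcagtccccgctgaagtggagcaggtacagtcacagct
ARIH1: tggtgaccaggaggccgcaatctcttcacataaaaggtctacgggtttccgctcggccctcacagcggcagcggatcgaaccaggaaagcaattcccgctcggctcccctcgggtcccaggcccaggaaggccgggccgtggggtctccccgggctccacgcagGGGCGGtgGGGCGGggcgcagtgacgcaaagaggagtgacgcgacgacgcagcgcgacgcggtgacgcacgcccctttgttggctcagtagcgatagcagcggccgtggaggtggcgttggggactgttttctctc
CHRNA3: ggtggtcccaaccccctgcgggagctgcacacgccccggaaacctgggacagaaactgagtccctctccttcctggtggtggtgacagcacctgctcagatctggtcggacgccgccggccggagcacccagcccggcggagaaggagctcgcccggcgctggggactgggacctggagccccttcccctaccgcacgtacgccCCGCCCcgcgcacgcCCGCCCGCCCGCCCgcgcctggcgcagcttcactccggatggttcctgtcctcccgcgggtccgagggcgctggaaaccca

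CEMIP, ARIH1 and CHRNA3 had 32, 32 and 31 CG pairs in these windows, and CYP11A1 had 5. The CEMIP window held a TATAAA match at base 221 and 3 GC boxes, counting the complement CCGCCC. In CHRNA3, 4 CCGCCC matches lay close together and 3 of them overlapped, while CYP11A1 held none of the 4 motifs. A high and a low CG content thus both occurred among the highest members, and CHRNA3 had the lowest ratios of these 4 genes beside a CG-rich start. A match is a description of letters and not a binding site.

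The ratio of knockdown over control was above 0 on the log2 scale for 155 of the 214 members (72.43%) when both times were averaged, against 50.39% of all genes. The shift was small: the members' median log2 ratio was 0.042 at 0 h and 0.037 at 3 h, and 0.032 over both times, which is a ratio of 1.02. Over all genes the medians were -0.0021, 0.0041 and 0.0004. Over the other 354 genes of chromosome 15 they were -0.0080, 0.0005 and -0.0024. Among the 25 chromosomes and chromosome parts compared, the distal arm ranked second by its median over both times. Chromosome 7, with 887 genes and a median of 0.046, ranked first, and chromosome 3 came next at 0.0094.

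By replicate, the members' median was 0.047, 0.046 and 0.034 at 0 h and 0.035, 0.021 and 0.047 at 3 h. All 6 values lay above those of all genes on the same arrays, which ranged from -0.0069 to 0.0072. The mean of the replicate medians was 0.0421 ± 0.0072 at 0 h and 0.0346 ± 0.0131 at 3 h (SD, n = 3 each), so the times overlapped.

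Dye orientation moved with the size of the shift. On the 6 forward arrays the members' median was 0.0131 ± 0.0023 (SD), close to 1 rounding step of the deposited values near a ratio of 1 (0.0144 on the log2 scale). On the 6 swapped arrays it was 0.0514 ± 0.0151, with single arrays from 0.0286 to 0.0704. The corresponding means over all genes were -0.0047 and 0.0032. Between 51.40% and 56.07% of the members were above 0 on a forward array and between 61.68% and 72.90% on a swapped array. The orientations did not overlap, and the part of the dye in the result was not tested. Forward and swapped means had opposite signs for 104 members (48.6%), as for 53.9% of all genes, and both lay above 0 for 88 members (41.1%) against 23.1% of all genes.

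**Figure D1:**
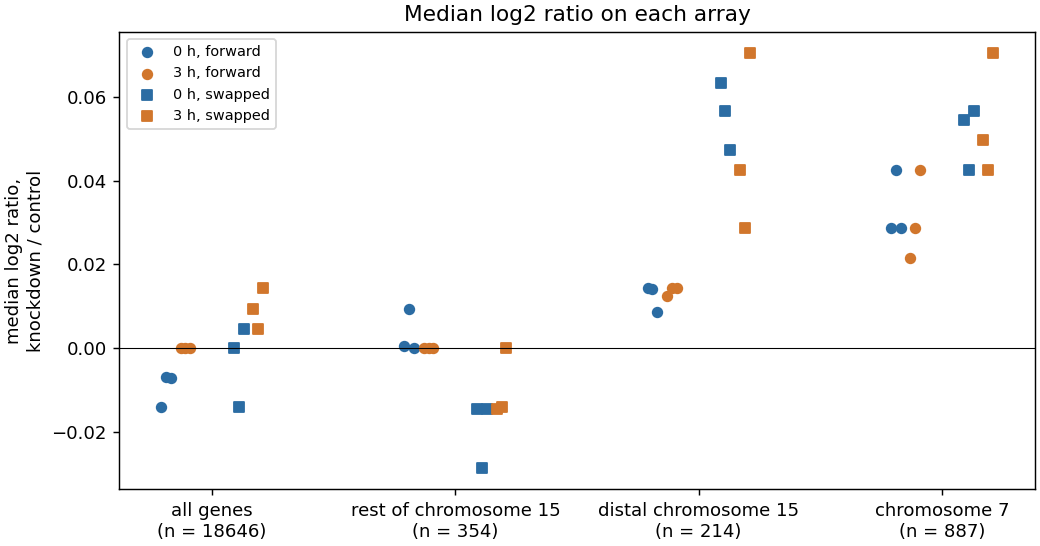
Median log2 ratio of knockdown over control on each of the 12 arrays (vertical axis) for all genes, the rest of chromosome 15, distal chromosome 15 and chromosome 7; circles are forward and squares are swapped arrays, blue at 0 h and orange at 3 h. All 12 medians of distal chromosome 15 are above 0, the forward ones between 0.0086 and 0.0144 and the swapped ones between 0.0286 and 0.0704.

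Position along the arm was then read in bins of 5 Mb. Bin edges were counted from the start of the region, which the selection set, so a step at that edge is a description only. The bin from 67.4 to 72.4 Mb just outside had a median over both times of -0.018 (36 genes). The first bin inside, from 72.4 to 77.4 Mb, had the highest, 0.061 (62 genes, 79.0% above 0). The lowest bin inside ran from 82.4 to 87.4 Mb, with a median of 0.014 (34 genes, 61.8% above 0). The last, from 97.4 to 102.4 Mb, was at 0.051 (24 genes). The medians of the bins between were 0.038, 0.031 and 0.018, the last of these over only 11 genes. All 6 bins of the region were above 0, whereas 3 of the 10 bins outside were, none of them above 0.0118.

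The genes nearest to the boundary, which the selection set, differed by little. TMEM202, HEXA-AS1 and HEXA, the nearest 3 outside, had log2 ratios over both times of -0.03, -0.02 and -0.04. HEXA encodes a subunit of a lysosomal hexosaminidase. ARIH1, a ubiquitin ligase and the first member inside, stood at 0.01, 0.01 and 0.02 at 0 h and 0.13, 0.04 and 0.02 at 3 h, above 0 in 6 of 6 replicates. BBS4, a protein of the primary cilium, averaged 0.04 over both times with 5 of 6 replicates above 0, and ADPGK, an ADP-dependent glucokinase, averaged 0.00. The 10 genes nearest outside had a median of -0.027 with 2 above 0, and the 10 nearest inside had 0.026 with 7 above 0. No sharp jump separated single neighbours, and their replicates overlapped.

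**Figure D2:**
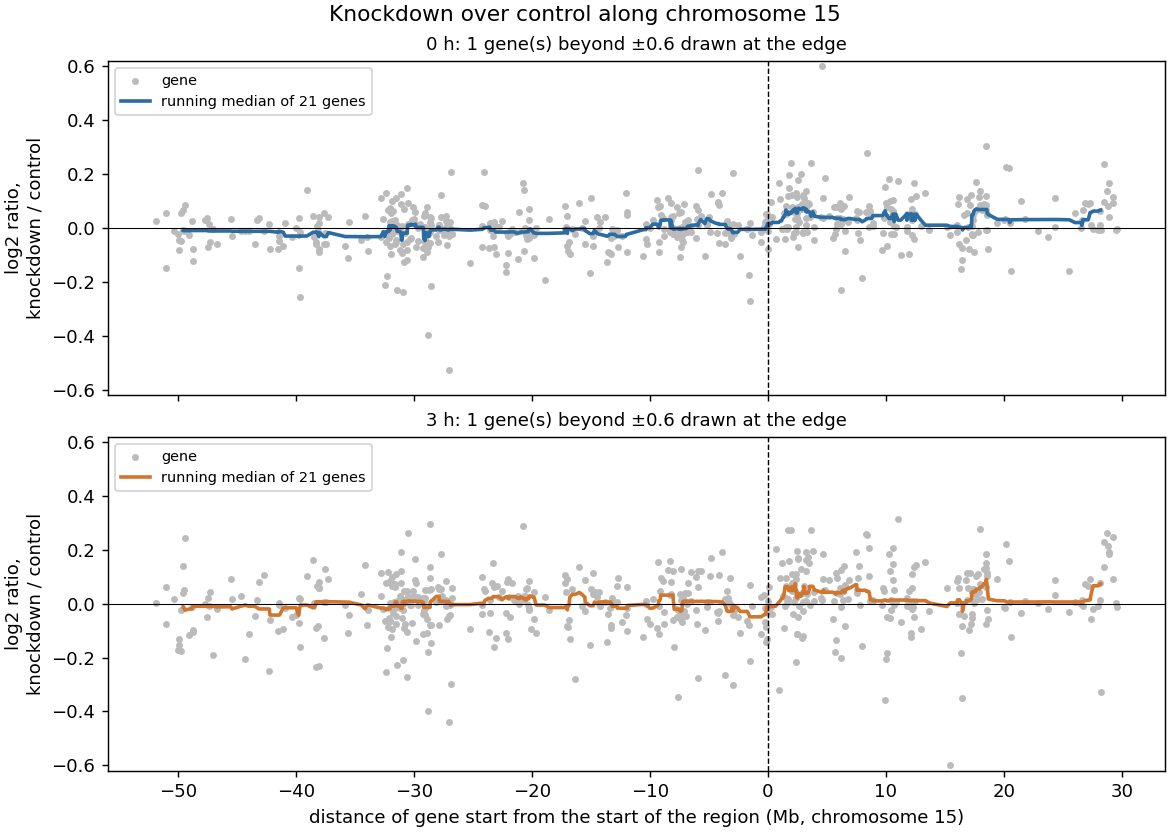
Log2 ratio of each gene of chromosome 15 (grey points; vertical axis) against the distance of its start from the start of the region (horizontal axis, Mb), at 0 h above and 3 h below, with the running median of 21 genes as a line. The running median lies mostly near or below 0 to the left of the dashed line and mostly above 0 to the right of it at both times.

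Members above 0 were interspersed with others. The longest run of neighbouring members above 0 held 13 genes, from ZNF710 to HDDC3. The stretch next to the telomere, from ALDH1A3 to the last member over 1.10 Mb, held 10 members, of which 8 were above 0 and 6 were above 0 on all 12 arrays. These 6 were ALDH1A3, LRRK1, CHSY1, SELENOS, PCSK6 and TM2D3, and the median of the 10 was 0.13. The 2 members at the very end, the pseudogenes OR4F4 and WASH3P, stood at 0.00 and -0.01. Of all members 72.43% were above 0 and 12.1% were above 0 on all 12 arrays, against 50.39% and 4.54% of all genes. This stretch was picked after its values were seen, so nothing is read from its counts.

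**Figure D3:**
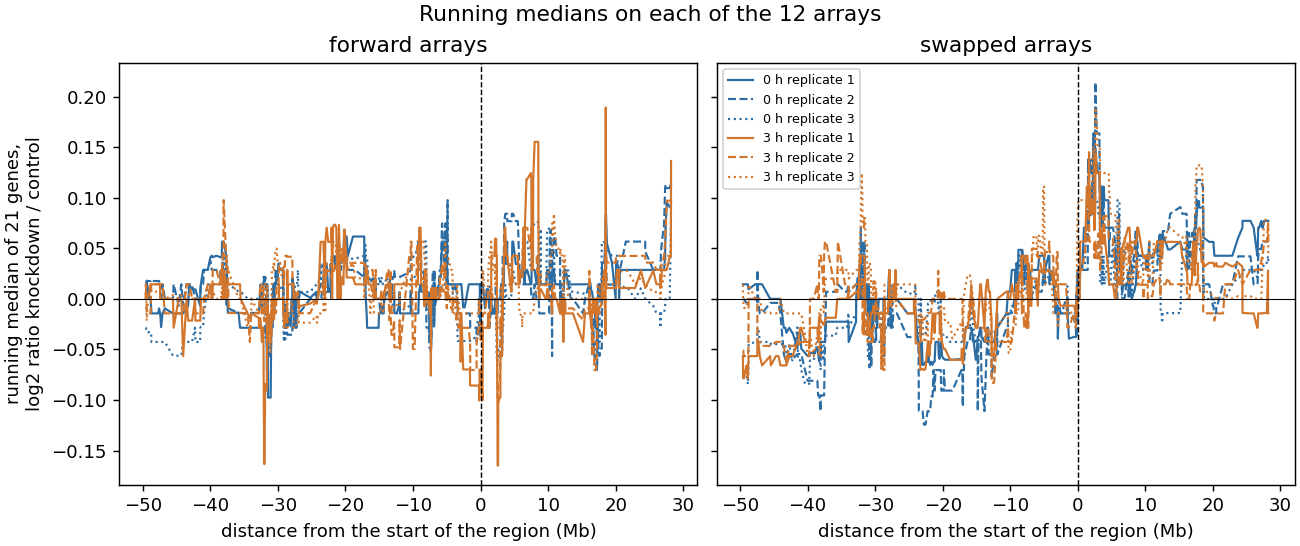
Running median of 21 genes of the log2 ratio (vertical axis) against distance from the start of the region (horizontal axis, Mb) on each array, forward arrays on the left and swapped arrays on the right; colours give the time and line styles the replicate. The swapped arrays step upward at the dashed line, and the forward arrays show no common step there, while all 6 end above 0 at the right.

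Counts of members past the threshold of the fit across all genes (limma, adjusted p under 0.05) describe the same contrast that selected them. At 0 h 14 members (6.54%) were called higher, against 2.92% of all genes, and 2 (0.935%) were called lower, against 3.89%. At 3 h 32 members (15%) were called higher, against 6.84% of all genes, and 4 (1.87%) lower, against 5.77%. In all, 35 members were higher at either time, 11 of them at both. The matching shares of all genes were not counted, so nothing is read from these totals. All 6 replicate values were above 0 for 73 members (34.1%; 14.1% of all genes) and below 0 for 12 (5.61%; 13.3% of all genes), and all 12 arrays were above 0 for 26 (12.1%; 4.54% of all genes). Since the rule used this contrast, nothing is read from these shares.

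Of the 35 members called higher, 34 were above 0 in 6 of 6 replicates and 17 on 12 of 12 arrays. The calls were made on these same values, so this agreement is a description only. MORF4L1, MTHFS, SNHG21, FURIN and FES had forward and swapped means of opposite sign, so their direction rests on the average of both dyes. FES at 0 h reversed on forward arrays alone, to -0.057. The counts also moved with the arrays used: forward arrays alone gave 3 members at 0 h (1.4%, with 1.59% of all genes) and 9 at 3 h (4.21%, with 3.11%). A fit with a dye term on single arrays that also left out the 3 arrays with the widest ratios changed both choices together and took both arrays of a replicate as separate samples. It gave counts of 56 (26.2%, with 8.74% of all genes) and 41 (19.2%, with 9.63%) and medians of 0.037 and 0.028. Without 0 h replicate 1, 2 or 3 the 0 h count was 1, 0 or 0 (0.134%, 0.145% and 0.123% of all genes), and without 3 h replicate 1 it was 34 (5.63% of all genes). Leaving out 0 h replicate 1 or 3, or 3 h replicate 1, 2 or 3, took the 3 h count to 12, 13, 21, 10 and 13, with 2.92%, 3.03%, 4.39%, 2.3% and 2.66% of all genes.

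CEMIP, which takes part in the breakdown of hyaluronan, had the second highest average of the members. It stood at 0.22, 0.33 and 0.29 at 0 h and at 0.24, 0.26 and 0.27 at 3 h, above 0 on 12 of 12 arrays. The average over both times was 0.27, a ratio of 1.2, and forward and swapped means were 0.25 and 0.28. Its 3 probes differed: they averaged 0.54, 0.25 and 0.01, the first and second above 0 on 12 of 12 arrays and the third on 5 of 12. Both times overlapped.

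CYP11A1, the mitochondrial enzyme that cuts the cholesterol side chain, was nearly as high. Its replicates were 0.22, 0.25 and 0.26 at 0 h and 0.18, 0.30 and 0.34 at 3 h. LRRK1, a large kinase with leucine-rich repeats related to LRRK2, stood at 0.24, 0.24 and 0.23 at 0 h and at 0.29, 0.17 and 0.22 at 3 h. For both genes 12 of 12 arrays were above 0, each from a single probe.

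Other members among the 10 highest varied more. TMEM266, a membrane protein with a voltage-sensor domain, went from 0.10 to 0.38 over the 6 replicates, and FAM174B from 0.13 to 0.34. The endophilin SH3GL3, which acts in endocytosis, averaged 0.24, with 0.60 in 3 h replicate 1 and 0.13 to 0.22 in the others, and its swapped mean was -0.03. IQGAP1, a scaffold of the cytoskeleton, averaged 0.21 and CHSY1, a chondroitin sulphate synthase, 0.20. Both of these were highest in 3 h replicate 1, at 0.43 and 0.41, the replicate that holds the widest array. FES, a cytoplasmic tyrosine kinase, averaged 0.25 from a forward mean of -0.08 and a swapped mean of 0.58.

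PSTPIP1, an adaptor of the actin cytoskeleton in blood cells, ranked first by its average of 0.58, and this rank rests on a single array. Its replicates were 0.00, 3.48 and -0.06 at 0 h and 0.01, -0.01 and 0.05 at 3 h, with 6.87 on the swapped array of 0 h replicate 2. The fit of single arrays without the 3 wide arrays put it at -0.01 at 0 h. NTRK3, the receptor for neurotrophin-3, ranked last in the same way. It stood at -0.02, -0.02 and -0.04 at 0 h and at -3.07, -0.01 and -0.09 at 3 h, with -6.09 on the forward array of 3 h replicate 1. The probes of NTRK3 averaged 0.00, -1.57 and -0.06 over both times. Apart from 1 replicate each, both genes were near 0.

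**Figure D4:**
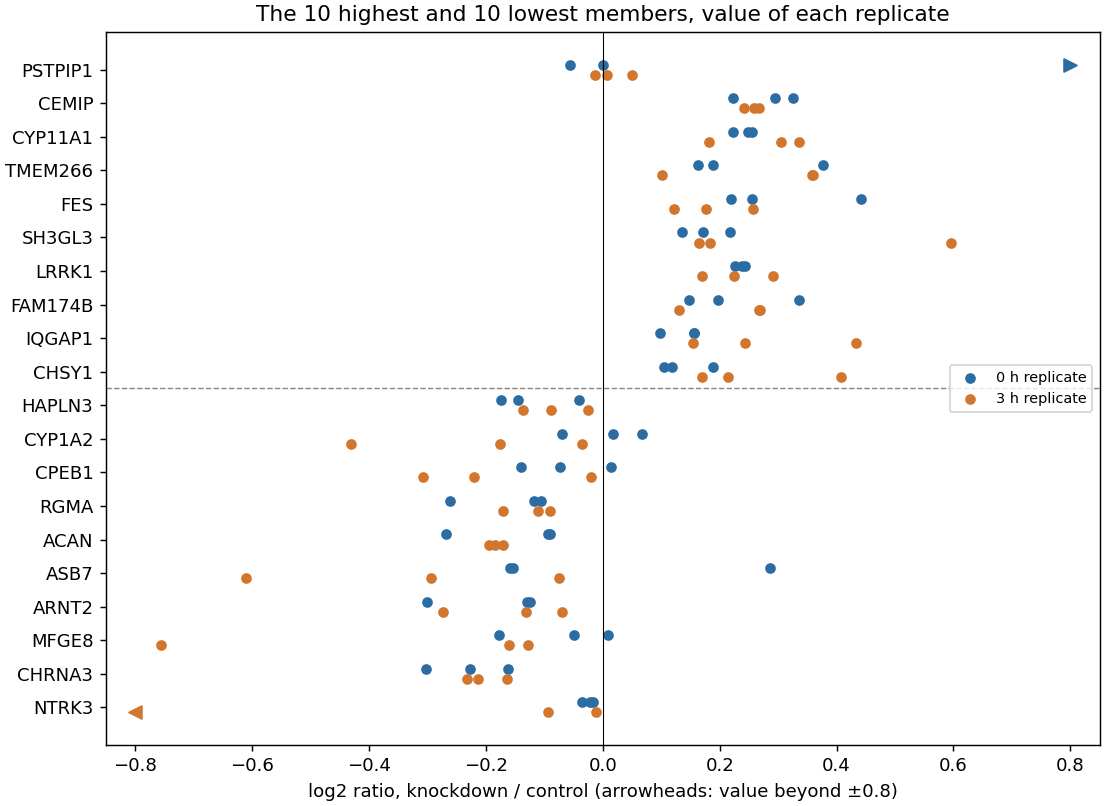
Log2 ratio of each replicate (horizontal axis; blue 0 h, orange 3 h) for the 10 highest and the 10 lowest members by the mean over both times. CEMIP, CYP11A1 and LRRK1 have tight replicates on the right, CHRNA3 has tight replicates on the left, and PSTPIP1 and NTRK3 each owe their place to 1 replicate beyond the axis.

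Some members went against the arm. CHRNA3, the alpha3 subunit of nicotinic receptors of autonomic ganglia, was lower in the knockdown at -0.23, -0.30 and -0.16 at 0 h and at -0.23, -0.16 and -0.21 at 3 h, below 0 on all 12 arrays. The neighbouring CHRNA5, an accessory subunit whose annotated span (78565520 to 78595269) overlaps that of CHRNA3 (78593052 to 78620996), stood at 0.07, 0.07 and 0.08 at 0 h and 0.15, 0.10 and 0.12 at 3 h. CHRNB4, the beta4 subunit on the other side of CHRNA3, averaged 0.00. Within this cluster the replicates of CHRNA3 and CHRNA5 did not overlap, although the genes are adjacent, and each was read by 1 probe.

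ACAN, the aggrecan core protein of cartilage, and RGMA, a repulsive guidance molecule of growing axons, averaged -0.17 and -0.14 and were below 0 in all 6 replicates. Each had a probe below 0 on all 12 arrays, at -0.29 and -0.27, and a second probe nearer 0, at -0.05 and -0.02. CIB2, a calcium-binding protein, and AKAP13, an anchor of protein kinase A, were called lower at 3 h with values of -0.18 and -0.09, and stood near 0 at 0 h. ARNT2, a partner of helix-loop-helix factors, averaged -0.17 with all 6 replicates below 0. MFGE8, a secreted bridge to dying cells, averaged -0.21 and was at -0.76 in 3 h replicate 1 and between -0.18 and 0.01 elsewhere. ASB7, CPEB1, CYP1A2 and HAPLN3 completed the 10 lowest with averages from -0.17 to -0.10. Of these 4, only HAPLN3, a link protein of the matrix, was below 0 in every replicate, and its swapped mean was above 0 (0.12). The probes of ASB7 disagreed in sign, with averages of 0.04, 0.07 and -0.61, as did those of CYP1A2, at -0.23 and 0.02.

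The members were also grouped by what they do, with lists chosen while earlier results of these data were known. Calls in every list are to be set against 2.92% of all genes and 6.54% of all members higher at 0 h, and 6.84% and 15% at 3 h. For calls lower, the shares of all genes and of all members were 3.89% and 0.935% at 0 h and 5.77% and 1.87% at 3 h. With at most 18 members a list, nothing is read from single calls. All members together had 72.43% above 0 and a median over both times of 0.032, against 50.39% and 0.0004 for all genes. Every list was drawn from these selected members, so the list medians are a description only. Of 16 kinases and signalling genes 13 were above 0, with a median over both times of 0.096. In this list 3 members were called higher at 0 h, and 4 higher and 2 lower at 3 h. ALPK3, an alpha kinase of muscle, stood at 0.20, 0.13 and 0.18 at 0 h and at 0.13, 0.13 and 0.15 at 3 h. PSTPIP1, FES and LRRK1 had the largest values of the list and are given above.

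Genes of vesicle traffic and protein processing came close, with 13 of 14 above 0 and a median of 0.077, and 2 were called higher at 0 h and 5 at 3 h. PCSK6, a proprotein convertase, stood at 0.20, 0.13 and 0.18 at 0 h and 0.19, 0.18 and 0.21 at 3 h, a narrow range in both. FURIN, its relative, averaged 0.13 with replicates from 0.09 to 0.18 that joined a forward mean of -0.19 to a swapped mean of 0.46. TM2D3 averaged 0.18, and SELENOS, a selenoprotein that helps clear misfolded proteins from the endoplasmic reticulum, 0.15. Both were highest in 3 h replicate 1, at 0.42 and 0.40.

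In RNA handling, translation and protein turnover, 12 of 14 members were above 0 with a median of 0.078, and 1 was called higher at 0 h and 2 at 3 h. RPP25, a subunit of ribonuclease P, averaged 0.17 and was not called, with a forward mean of -0.13. SNUPN, which carries splicing particles into the nucleus, also averaged 0.17, and its replicates ran from 0.10 to 0.34. UBE2Q2, a ubiquitin-conjugating enzyme with near-identical copies on this chromosome, so that its signal is uncertain, stood at 0.12, 0.07 and 0.09 at 0 h and at 0.18, 0.18 and 0.16 at 3 h.

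Mitochondrial and metabolic genes had 13 of 18 above 0 and a median of 0.063, with 1 called higher at 0 h and 4 at 3 h. After CYP11A1, the largest were MPI, which interconverts mannose and fructose phosphates, at 0.16, and the isocitrate dehydrogenase IDH2, at 0.14. MPI was not called at either time although all 12 arrays were above 0. IDH2 joined a forward mean of -0.12 to a swapped mean of 0.40. Of the 8 genes of DNA replication, repair and mitosis 5 were above 0, with a median of 0.051 and 1 called higher, at 3 h. That was the helicase BLM, with replicates of 0.09, 0.12 and 0.06 at 0 h and 0.17, 0.11 and 0.12 at 3 h. FANCI, of the Fanconi DNA repair pathway, averaged 0.11, and TICRR, which helps to start replication, 0.10 from probes at 0.19, 0.13 and -0.02.

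Of the retinoid list 4 of 6 genes had values, all 4 above 0, with a median of 0.063 and 1 called higher at each time. ALDH1A3 stood at 0.12, 0.07 and 0.10 at 0 h and at 0.19, 0.15 and 0.07 at 3 h, above 0 on 12 of 12 arrays as the average of 3 probes. The probes disagreed in sign, with averages of 0.27, 0.11 and -0.03, the last above 0 on 7 of 12 arrays. STRA6 was at 0.12, 0.16 and 0.17 at 0 h and at 0.07, 0.01 and 0.12 at 3 h. RLBP1, a retinaldehyde-binding protein of the eye, averaged 0.02, and PML, which forms nuclear bodies, averaged 0.00 over 6 probes. The times overlapped for ALDH1A3 and came within 0.01 of each other for STRA6, and neither difference passed.

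The other 3 lists lay near all genes. Of 16 matrix, adhesion and guidance genes 10 were above 0 with a median of 0.011, spread between CEMIP at one end and MFGE8 at the other, with 2 called higher and 1 lower at 0 h and 3 higher and 1 lower at 3 h. ISLR, a secreted protein with leucine-rich repeats, stood at 0.22, 0.17 and 0.20 at 0 h and 0.20, 0.14 and 0.14 at 3 h, above 0 on all 12 arrays. Of 13 genes for acetylcholine receptors, channels and the synapse 7 were above 0 with a median of 0.0021, and 1 was called in each direction at 0 h, 2 higher and 1 lower at 3 h. ISLR2, a neuronal membrane protein, had the highest average there, 0.20, with replicates from -0.07 to 0.43. Transcription and chromatin genes had 6 of 12 above 0 and a median of -0.0001. MORF4L1, a chromodomain protein that reads histone marks and the only one of that list called, averaged 0.11 from probes at 0.18, 0.20 and -0.04, and MEF2A, a transcription factor of muscle and neurons, 0.08. CHASERR, a long noncoding RNA outside these lists and picked after its values were seen, stood at 0.19, 0.28 and 0.19 at 0 h and 0.15, 0.11 and 0.21 at 3 h.

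**Figure D5:**
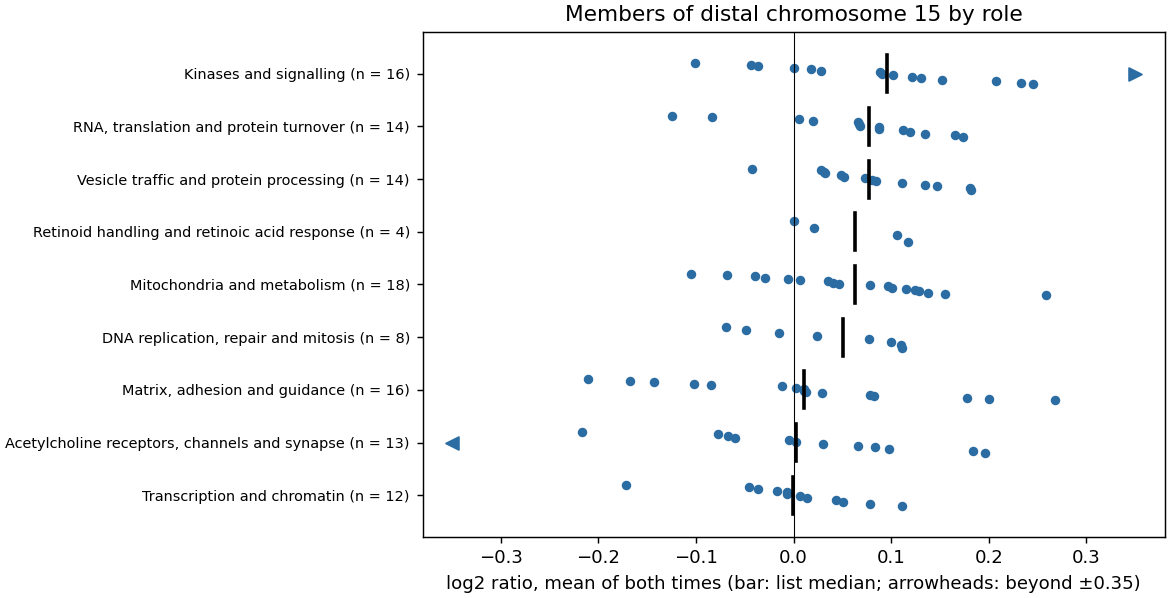
Log2 ratio averaged over both times (horizontal axis) of each member in 9 role lists, ordered by the list median (black bar). The lists for kinases, for RNA and protein turnover and for vesicle traffic have medians between 0.077 and 0.096, and those for matrix, synapse and transcription lie between -0.0001 and 0.011.

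Promoter sequence gave a property that the selection did not use. A promoter was in the RefSeq table for 181 members, with a median of 26 CG pairs in 300 bases, against 23 over 14606 array genes. The 98 members with more than 23 had a median log2 ratio over both times of 0.061, and 25 of them (25.5%) were called higher at 0 h or 3 h, as were 7.9% of all CG-rich genes. The 83 others had a median of 0.027, with 8 called (9.6%, against 6.6% of all such genes). Over all genes the CG-rich and CG-poor medians were -0.0008 and 0.0016. The members' ratios and calls are those that selected them, so these values are a description and nothing is read from their difference.

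GGGCGG, read on both strands, was in 71.3% of the members' promoters and in 60.5% of array genes with a promoter. It was in 81.8% of the called members' promoters and in 68.9% of the others. TATAAA was in 7.7% (8.7% of array genes), CCAAT in 30.4% (36.4%) and AGGTCA in 8.8% (11.2%). AGGTCA was in 3.0% of called and 10.1% of other members. Differences between called and other members were not tested.

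The members comprised 182 protein-coding genes, 18 long noncoding RNAs and 14 pseudogenes or transcribed pseudogenes. Long noncoding RNAs had 15 of 18 above 0 with a median of 0.031, and protein-coding genes had 132 of 182 with a median of 0.040. The 2 pseudogenes were both below 0 (median -0.014), and 8 of 12 transcribed pseudogenes were above 0 (median 0.014), with 0 of these 14 called higher at either time. Of 349 probes 243 were above 0 over both times. Among the 88 members with more than 1 probe, all probes were above 0 for 41 and below 0 for 10, and probes disagreed in sign for 37. For the 126 members with 1 probe no such comparison was possible.

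Whether the ratio of each member changed between the times was tested, since the selection had not used this difference. By limma, 0 of 214 members passed for 3 h minus 0 h (adjusted p under 0.05), as did 0.0% of all genes. At an unadjusted p under 0.05 there were 12 (5.61%), against 5.06% of all genes. The median difference over the members was 0.0067, and 0.0095 over all genes. The smallest adjusted p among the members was 0.718 by limma. No change in the ratio of any member was thus detectable between untreated and retinoic acid-treated cells with 3 replicates per time. A shift of the arm as a whole was not tested.

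The 5 members with the smallest p had small differences. LINC00933, a long noncoding RNA, differed by -0.22 ± 0.05 (moderated SE, n = 3 per time; limma adjusted p = 0.718), from 0.13, 0.12 and 0.08 at 0 h to -0.17, -0.16 and 0.00 at 3 h. AKAP13 differed by -0.10 ± 0.03 and CIB2 by -0.16 ± 0.05, each with the same adjusted p. ABHD2, a lipid hydrolase, went from 0.07, 0.02 and 0.05 to -0.07, -0.04 and -0.03. CSPG4P5, a pseudogene of CSPG4 that may share signal with its parent, went from -0.11, -0.02 and -0.16 to 0.01, 0.08 and 0.06. For LINC00933, AKAP13, CIB2, ABHD2 and CSPG4P5 the replicates of the times did not overlap, and none passed. These 5 were picked by this same difference, so the lack of overlap is a description only.

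Facts of the whole series bear on these values. DNAJC2, the hairpin's target, was below 0 on 12 of 12 arrays, with replicates of -0.58, -1.01 and -0.52 at 0 h (limma adjusted p = 0.106) and -1.62, -0.44 and -0.82 at 3 h (limma adjusted p = 0.0348). The reading of the deposited ratios as Cy5 over Cy3 drew on this gene, so its direction is no independent check of the knockdown. Of 7 markers of embryonal carcinoma cells 6 were measured and 0 were called at either time (0 h values from -0.03 to 0.19, 3 h values from -0.24 to -0.01). Of 7 fibroblast markers 2 were called higher and 1 lower at each time, with values from -0.26 to 0.28, and their part in the result was not tested. Ratios give no level, so the labelled cell type could not be checked. On 3 arrays, namely 3 h replicate 1 forward, 0 h replicate 2 swapped and 3 h replicate 3 swapped, the log2 ratios spread more than 1.2 times as widely as on the median array, up to 3.41 times. No intensities accompany the ratios, so the depth is unknown and precision is limited by how many arrays there were.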

How the data were processed

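RNA of 6 pairs of knockdown and control cultures was measured on 12 Agilent 2-colour arrays. The authors deposited a signed fold per probe (ratio of Cy5 over Cy3, with a ratio under 1 written as its negative inverse). No label names this unit. The signed form was read from the values, which have 2 decimals and of which 0 lie between -1 and 1. That the ratio is Cy5 over Cy3 was read with the help of the target gene, DNAJC2. All directions given here rest on that reading. The authors used limma, per the submitters' processing notes. Its version, the background correction and the normalization are not given in the sources used here.

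Of 41078 features, 78 were controls and 29341 probes had a single gene symbol. Symbols and positions came from RefSeq (GRCh38.p14) by Entrez number, for 29298 probes. Ratios were converted to log2, and swapped arrays were turned by the dyes in the labels so that positive means higher in the knockdown. Probes of a gene were averaged, then both arrays of a replicate, which left 6 values for each of 18646 genes. All genes were fitted with limma 3.58.1 in R 4.3.3 (lmFit and eBayes, a coefficient per time, 4 residual degrees of freedom), with Benjamini-Hochberg adjustment over all genes and a threshold of 0.05. The script was tested on simulated data. Replicates were not blocked by number in the main fit: deviations of same-numbered replicates correlated at 0.04, -0.03 and -0.3 across genes. Alternatives changed the normalization, dye orientation, probes, replicates, start of the region and fit.

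The members and lists were chosen with earlier results of these data known. Genes were named by rule: DNAJC2, the 10 highest and 10 lowest members, 3 genes on each side of the boundary, the 5 with the smallest p for the difference, the 3 largest per role list and all of the retinoid list. Others were named after their values were seen. The rule left out 2 genes with probes in the region.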

Additional observations from a re-analysis of the deposited data

Results flagged for a closer look

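ABHD2 and CSPG4P5 were marked because all 3 replicates lay on opposite sides of 0 at the 2 times. For ABHD2 the difference of 3 h minus 0 h was -0.09 (-0.0938 before rounding), with a limma adjusted p of 0.718 over all genes. For CSPG4P5 it was 0.14 (0.1418 before rounding), also with a limma adjusted p of 0.718. Both are among the 5 members with the smallest p for this difference, and neither passed.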

How the results depend on the processing

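The members' median stayed above 0 at both times under every alternative run. At 0 h (0.0417) it moved by more than the SD of the replicate medians on forward arrays alone (0.0189), on swapped arrays alone (0.0601), with genes of 2 or more probes (0.05) and as a mean over members (0.0497). At 3 h (0.0371) it did so on forward arrays alone (0.0194) and swapped arrays alone (0.0553). Moving the start of the region by 1 Mb either way, or putting back the genes left out, kept both medians and both counts within those limits.

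Counts of members called higher are given with the share of all genes called in brackets. At 0 h the count (14, 2.92%) was 39 (7.11%) with arrays rescaled by their width, 45 (7.32%) after quantile normalization, 3 (1.59%) on forward arrays alone, 55 (12.8%) on swapped arrays alone, 7 (3.39%) with genes of 2 or more probes, 26 (4.57%) with each time fitted alone and 0 to 34 (0.123% to 5.63%) when a replicate was left out. In fits of single arrays with a dye coefficient, which change the unit of the fit as well, it was 56 (8.74%) without the 3 wide arrays and 29 (5.38%) with the replicate as a random effect. At 3 h the count (32, 6.84%) was 50 (10.5%) after rescaling, 50 (9.84%) after quantile normalization, 9 (3.11%) on forward arrays alone, 0 (0.0%) with each time fitted alone, 49 (10.3%) in the fit of single arrays with the random effect and 10 to 23 (2.3% to 4.39%) when a replicate was left out. With the replicate block it was 0 at both times, as it was for all genes (0.0%), and the numbers were not shown to pair the samples. Fewer samples and fewer residual degrees of freedom are part of leaving out a replicate or adding the block. Otherwise the cause was not tested. Members past the threshold for 3 h minus 0 h numbered 0 under every alternative, with 3 to 42 at an unadjusted p under 0.05.

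For single members named by rule, 1300 of 1426 alternative values kept their direction and size or call, and 125 moved. Among them 1 called value reversed: FES at 0 h, at -0.0566 on forward arrays alone, where the cause was not tested. Values that were not called did not count as reversed, such as those of RPP25, with a forward mean of -0.13. MTHFS, SNHG21 and FURIN, called higher with forward and swapped means of opposite sign, were not named by rule and lie outside these counts. With ratios alone, signal over background could not be judged.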
